A study of Mus musculus with 70 samples.

Results

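The data are the Ly6C-low monocyte and T cell libraries of unstressed mice, the control group called CON, from a series on immune cells of the blood in social stress. They were chosen by their labels alone, cell type Ly6low or Tcells and condition CON, which gave 4 Ly6low and 6 T cell libraries, 10 of the 70 libraries of the series. The mice were C57BL/6J, bought at 7 weeks of age, and no transgene or deletion is given for any of the groups used here. The other conditions are stress-susceptible (SUS) and resilient (RES) mice, both taken after 10 days of chronic social defeat, in which a mouse meets a larger aggressor each day. Cells of trunk blood were sorted after lysis of red cells: T cells as B220-negative and CD90.2-positive, and Ly6C-low monocytes as negative for B220, CD90.2 and Ly6G, positive for CD11b and low for Ly6C. The antibody panel held no marker of natural killer (NK) cells. The labels name brain as the source, while the study's methods describe blood. The labels name no mouse, so p-values measure the spread between libraries, which may in part be technical. Libraries are called here by their numbers in the count table, 21, 24, 29 and 32 for Ly6low and 53, 56, 59, 62, 65 and 68 for T cells.

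Ly6C-low monocytes, also called non-classical or patrolling monocytes, crawl along the inner wall of blood vessels and take up debris, and in mice their formation depends on the nuclear receptor Nr4a1. T cells recognise peptides on MHC molecules through the T cell receptor, whose alpha and beta chains are joined from V, D and J segments and signal through the CD3 proteins. NK cells kill target cells with perforin and granzymes without a joined receptor, carry Ncr1 (NKp46) and, in mice, receptors of the Klr family, and, when mature, bear CD11b on their surface.

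The stretches just before the first transcription start of the genes that mark the 3 cell types are shown first, to place the markers that the text turns on. Ace encodes angiotensin-converting enzyme and marks Ly6C-low monocytes, Ncr1 an activating receptor of NK cells, and Cd3e a signalling chain of the T cell receptor complex. The sequences are RefSeq's on GRCm38.p6, 5′ to 3′ on the gene's own strand, and end at the base before the first start in RefSeq or GENCODE. Capitals mark letters of the 6 motifs named at the end of the results. The Ncr1 stretch held 1 of them, the RUNX letters TGTGGTT, 176 bases before the first start, and neither of the other stretches held any.
Ace, chr11:105967698-105967944, plus strand: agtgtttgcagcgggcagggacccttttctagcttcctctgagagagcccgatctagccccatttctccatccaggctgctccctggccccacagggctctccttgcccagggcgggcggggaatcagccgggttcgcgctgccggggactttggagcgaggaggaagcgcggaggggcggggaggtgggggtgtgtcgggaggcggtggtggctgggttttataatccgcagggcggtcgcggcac
Ncr1, chr7:4337465-4337714, plus strand: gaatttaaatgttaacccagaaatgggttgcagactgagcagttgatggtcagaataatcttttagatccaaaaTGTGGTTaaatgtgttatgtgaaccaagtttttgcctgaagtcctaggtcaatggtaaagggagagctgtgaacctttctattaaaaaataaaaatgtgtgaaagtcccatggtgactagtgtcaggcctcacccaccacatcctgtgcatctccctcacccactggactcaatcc
Cd3e, chr9:45009628-45009861, minus strand: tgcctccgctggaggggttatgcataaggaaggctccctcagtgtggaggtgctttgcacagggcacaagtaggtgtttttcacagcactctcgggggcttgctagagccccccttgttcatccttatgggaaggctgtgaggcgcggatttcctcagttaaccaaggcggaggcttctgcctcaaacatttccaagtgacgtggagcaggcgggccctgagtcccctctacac

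Ly6low libraries held 27095178 to 35280211 counts in genes and T cell libraries 27257572 to 43437501. Mitochondrial genes took 3.66% to 5.37% of the counts in Ly6low and 9.53% to 13.9% in T cell libraries, and the ribosomal RNA-like genes Gm23935 and Gm26917 took 0.467% to 10.9% and 4.75% to 30.3%. Ace and Cd3e separated the groups as labelled in every library. T cell libraries 53, 56 and 59 stood apart by monocyte RNA: the summed level of the 20 myeloid core genes was 179, 281 and 112 CPM (counts scaled to the same library total) there, against 23.7, 38.2 and 35.3 in libraries 62, 65 and 68. Values without those 3 libraries, a setting added after the data were seen, are given beside the counts of the monocyte lists and beside the calls that were lost. Among stressed mice, 2 libraries went against their labels. T cell library 70 of RES mice had a summed T cell receptor complex level of 338 CPM, where the median of its group was 4770, and a summed B cell level of 13010. B cell library 52 of RES mice had sums of 4538 and 244 CPM, and it enters no comparison here and is shown only in the plot of NK sums. The counts of RES calls, and Ncr1 and Ace in RES, are given with and without T cell library 70.

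Across all genes, unstressed Ly6C-low monocytes and T cells differed widely. Of 18607 genes tested with edgeR's quasi-likelihood method, 5793 (31.1%) were called, that is had a Benjamini-Hochberg adjusted p under 0.05 and a log2 fold change beyond 1 in either direction. Of these, 2944 (15.8% of the genes tested) were higher in Ly6low and 2849 (15.3%) higher in T cells, and the median log2 fold change of all genes was 0.001. Changes were often large, with 849 genes more than 5 log2 units higher in Ly6low and 588 more than 5 units higher in T cells. Without T cell libraries 53, 56 and 59, 2994 genes were called higher in Ly6low, of which 2626 were among the 2944, and 2357 higher in T cells, of which 2237 were among the 2849. Scaling by library totals alone moved the median log2 fold change to 0.24 and the split to 3601 higher in Ly6low and 2295 higher in T cells. In the text, fold changes are Ly6low over T cells, and levels are CPM after TMM scaling, per library or as mean ± SD.

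**Figure D1:**
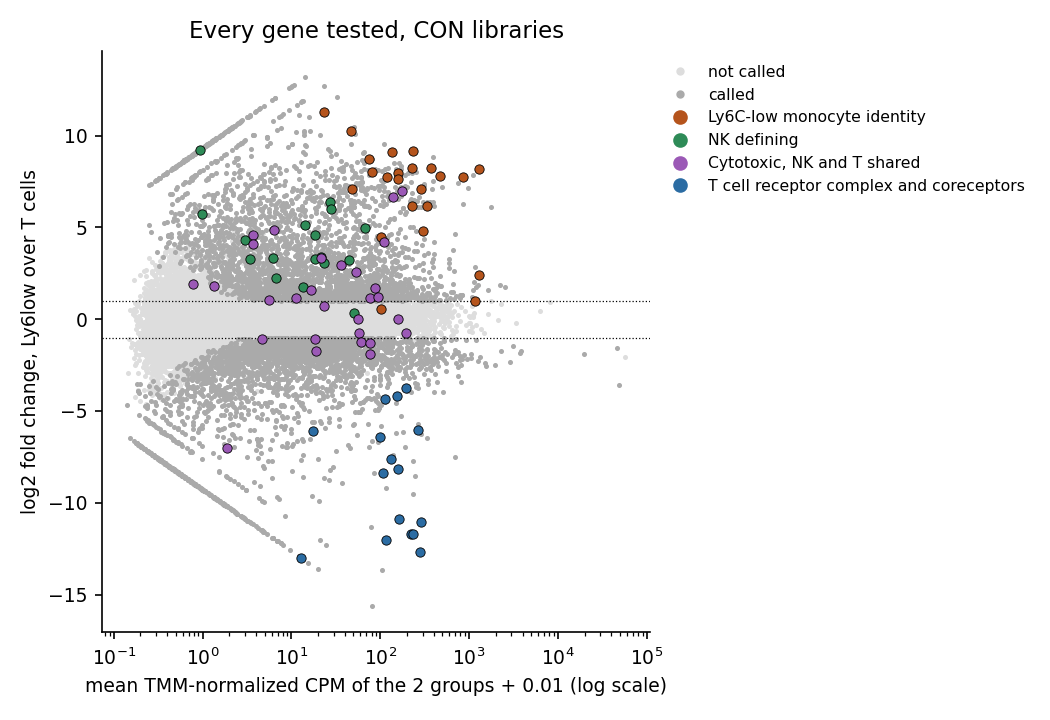
Log2 fold change of Ly6low over T cells (y axis) against mean CPM of both groups plus 0.01 (x axis, log scale) for the 18607 genes tested in CON libraries, with genes called in darker grey and listed genes in colour; dotted lines mark a log2 fold change of 1 in either direction. Monocyte identity genes and NK defining genes lie above 0 and T cell receptor complex genes below it.

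Genes of Ly6C-low monocyte identity were higher in Ly6low libraries. Of 24 listed, 23 passed the filter on low counts, 21 were called higher in Ly6low and 0 higher in T cells, with a median log2 fold change of 7.77, against 15.8% and 0.001 over all genes. Spn (CD43, a surface sialoprotein that T cells also carry) and Tgfbr3 had log2 fold changes of 1.00 and 0.56 and were not called, as neither went beyond 1. The median was 11.22 without T cell libraries 53, 56 and 59, with 21 members still called.

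Ace (ENSMUSG00000020681, chromosome 11, 105967945 to 105989964) stood at 2147, 2919, 2594 and 2746 CPM in Ly6low libraries 21, 24, 29 and 32. In T cell libraries it stood at 16.0, 20.0 and 18.1 in 53, 56 and 59 and at 0.319, 0.280 and 0.411 in 62, 65 and 68. The groups did not overlap, and T cell libraries fell into a higher and a lower set. The log2 fold change of Ace was 8.19 (SE 1.42, adjusted p = 0.00147, edgeR), and 12.98 without the 3 libraries of the higher set.

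Nr4a1, the nuclear receptor on which Ly6C-low monocytes depend, stood at 847, 954, 962 and 949 CPM in Ly6low libraries and between 2.26 and 5.52 (median 4.49) in T cells. Library 21 was the lowest Ly6low library for Nr4a1, and every Ly6low library lay above every T cell library. Its log2 fold change was 7.81 (SE 0.21, adjusted p = 2.16e-11, edgeR). Hes1, a target of Notch signalling, stood at 32.8 to 63.7 CPM in Ly6low and at 0 to 0.0469 in T cells, a log2 fold change of 11.27. Cd36, a scavenger receptor for lipids, stood at 327, 356, 299 and 298 CPM in Ly6low and at 0 to 4.91 (median 0.365) in T cells. The highest of the T cell values of Cd36 was that of library 56. Its log2 fold change was 7.99, and 11.22 without libraries 53, 56 and 59.

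**Figure D2:**
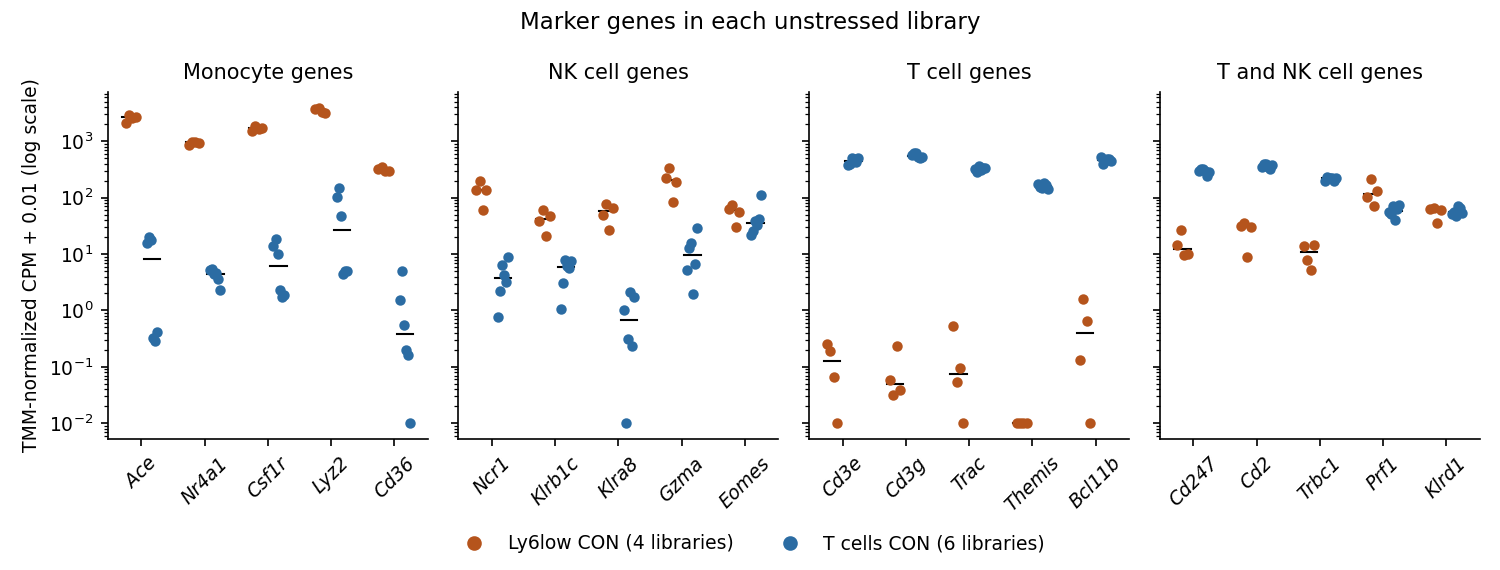
Level in CPM plus 0.01 (y axis, log scale) of 20 marker genes in each of the 4 Ly6low and 6 T cell CON libraries; points are libraries and bars are group medians. Ace and Lyz2 show T cell libraries 53, 56 and 59 above the other 3, Ncr1 is at 60.8 CPM or above in every Ly6low library, and Klrd1 overlaps between the groups.

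Genes shared by myeloid cells were also higher in Ly6low, with 19 of 20 tested called and a median log2 fold change of 6.34. The list holds Itgam (CD11b), by which Ly6low cells were sorted. Lyz2, lysozyme M, was the most abundant called gene per kilobase of exon in Ly6low, at 2669 CPM per kilobase against 40.1 in T cells. It stood at 3685, 3925, 3308 and 3129 CPM in Ly6low libraries, at 104, 151 and 47.9 in T cell libraries 53, 56 and 59, and at 4.49, 4.96 and 5.05 in 62, 65 and 68. The groups did not overlap. The log2 fold change of Lyz2 was 6.11 with all libraries and 9.54 without the first 3. Spi1, which encodes the myeloid transcription factor PU.1, had a log2 fold change of 7.22 (adjusted p = 0.00117, edgeR), and 11.96 without those libraries. Ms4a7 (3.58, adjusted p = 0.0718, edgeR) was the member not called. Without T cell libraries 53, 56 and 59 it was called (8.76, adjusted p = 0.00305, edgeR), as were all 20, with a median of 7.77.

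Sensors of microbes and the machinery of uptake and degradation followed the same direction. Of 18 Toll-like receptor genes and adaptors tested, 16 were higher in Ly6low and 2 higher in T cells, with a median log2 fold change of 3.91, and the counts were the same and the median 4.78 without T cell libraries 53, 56 and 59. Tlr13, a sensor of bacterial ribosomal RNA, was at 346 CPM against 1.06, a log2 fold change of 8.36 with all libraries and 14.01 without those 3, and Tlr7, a sensor of single-stranded RNA, at 281 against 6.60. The 2 higher in T cells were Tlr1 (log2 fold change -1.34) and Tlr12 (-3.13). Of 12 complement genes and receptors tested, 10 were higher in Ly6low, among them C3 (175 against 2.95 CPM), whose log2 fold change was 5.92 with all libraries and 8.39 without the 3. The median of the 12 was 5.98, and 8.11 without them, with 10 again called. Cd55, a brake on complement, was higher in T cells, at 88.9 CPM against 6.63.

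Of 8 Fc receptor genes tested, 7 were higher in Ly6low, with Fcgr4, an activating receptor for IgG, at 151 CPM against 0.329. Of 18 genes of lysosomal enzymes and proteins, 13 were higher in Ly6low and 0 in T cells, with a median of 2.83, and cathepsin B (Ctsb) stood at 1238 CPM against 94.2. Of 7 genes of the NADPH oxidase, which makes superoxide, 5 were higher in Ly6low, and Rac2, at 277 CPM against 511, had a log2 fold change of -0.83 that was not called. Of 11 inflammasome and interleukin-1 genes, 9 were higher in Ly6low, with Nlrp3 at 54.9 CPM against 0.0974 and Il1b at 77.7 against 0.374. Without T cell libraries 53, 56 and 59 the counts were 7 of 7 Fc receptor genes, 13 of 18 lysosomal, 5 of 7 NADPH oxidase and 8 of 11 inflammasome genes.

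Genes of MHC class II presentation, which shows peptides to helper T cells, were higher in Ly6low in 8 of 10 cases, with a median log2 fold change of 5.66, and in 8 with a median of 6.68 without T cell libraries 53, 56 and 59. Cd74, the invariant chain, stood at 1986, 1216, 2429 and 1152 CPM in Ly6low and at 25.8, 46.5 and 38.5 in T cell libraries 53, 56 and 59 against 9.57, 9.90 and 6.33 in 62, 65 and 68. Libraries 21 and 29 were the higher Ly6low libraries for Cd74, and the groups did not overlap. The same libraries were the higher ones for Clec9a, a receptor of cross-presenting dendritic cells, at 24.3 and 31.7 CPM against 8.89 and 10.4 in 24 and 32. Clec9a had 0 counts in the T cell libraries, so it was at least 1488-fold higher in Ly6low. Of 13 genes of MHC class I presentation, which all nucleated cells use, 0 were higher in Ly6low and 3 (H2-Q4, H2-Q7 and Nlrc5) higher in T cells, with a median of -0.62.

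Among transcription factors of monocyte fate, 13 of 18 were higher in Ly6low and 2 (Id3 and Runx3) higher in T cells, with a median of 5.27, and the counts were the same without T cell libraries 53, 56 and 59 (median 5.42). Irf5 (495 against 5.99 CPM) and Irf8 (281 against 6.33), interferon regulatory factors, and Bcl6 (419 against 13.3) were among the 13. Klf2, a factor of quiescence in both lineages, stood at 348 and 487 CPM and was not called (log2 fold change -0.43, adjusted p = 0.265, edgeR).

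By size of change, the 10 protein-coding genes furthest above T cells were Clec4e, Sstr4, Clec9a, Dpep2, Ip6k3, Fpr1, Tcea3, Fpr2, Fam20c and Azin2. Clec4e, the C-type lectin Mincle, stood at 52.2, 52.5, 46.4 and 37.0 CPM in Ly6low and gave 1 count in all T cell libraries, a ratio of the pooled levels of 11490 (95% interval 2062 to 454000, counting error only). Fpr1 and Fpr2, receptors for formyl peptides of bacteria, had 0 and 1 T cell counts, so that Fpr1 was at least 818-fold higher and the ratio for Fpr2 was 4626 (829.6 to 182800). Sstr4, a somatostatin receptor, stood between 18.5 and 21.3 CPM in Ly6low and was at least 1586-fold higher. A total of 0 counts over a group allows up to 3, which sets these bounds, and they cover counting error only. Per kilobase of exon, the most abundant genes called higher in Ly6low after Lyz2 were Cd74, Apoe, Ctss, Psap, Itgb2, Ace, Gpx1, Fcer1g and Flna, at 413 to 1010 CPM per kilobase.

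On the T cell side, every one of the 16 genes of the T cell receptor complex and its coreceptors was called higher in T cells, with a median log2 fold change of -8.27. Thy1 among them encodes CD90, by which the cells were sorted, so its direction is no finding. Cd3e (ENSMUSG00000032093, chromosome 9, 44998740 to 45009627) stood at 0.245, 0.177, 0.0558 and 0 CPM in Ly6low libraries and between 382 and 504 (median 456) in T cells. The highest Ly6low count was 10 reads, and the groups did not overlap. The log2 fold change of Cd3e was -11.71 (SE 0.41, adjusted p = 1.44e-09, edgeR). Trac, the constant gene of the alpha chain, stood at 0.514, 0.0444, 0.0837 and 0 CPM in Ly6low and between 280 and 364 in T cells, a log2 fold change of -10.86. Cd8a, a coreceptor for MHC class I, stood at 0.122 and 471 CPM, and Cd4, for MHC class II, at 1.03 and 319.

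The segments of the receptor followed. All 63 alpha V genes tested were higher in T cells, with a summed level of 0 to 1.39 CPM in Ly6low and 116 to 145 in T cells, and so were all 23 beta V genes tested, at 0 to 1.57 and 181 to 276 CPM. Of 13 beta J genes tested, 11 were higher in T cells. Their summed level was 5.64 to 12.6 CPM in Ly6low, above that of the beta V genes there, and 53.3 to 74.0 in T cells. The delta chain was an exception. Of 4 delta V genes tested, 1 was called higher in T cells, and their summed level was 2.85 to 6.72 CPM in Ly6low and 1.68 to 5.99 in T cells. The delta constant gene, at 3.82 to 8.46 and 5.49 to 15.0 CPM, was not called.

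Of 24 T cell signalling genes, 16 were higher in T cells and 1 in Ly6low. Themis, which tunes receptor signals, had 0 counts in the 4 Ly6low libraries and stood between 145 and 182 CPM in T cells, at least 8422-fold lower in Ly6low. Lcp2 (SLP-76), an adaptor that myeloid and NK cells share, was the 1 higher in Ly6low, at 366 CPM against 186, a log2 fold change of 1.03. Lat, the membrane adaptor of the receptor, stood at 3.88 against 300 CPM. The remaining 7 were not called, among them Fyn (243 against 289 CPM) and Nfatc3 (289 against 314).

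Of 18 T cell transcription factors, 15 were higher in T cells and 0 in Ly6low, with a median of -2.73. Tcf7 (TCF-1), a factor of naive and memory T cells, stood at 13.0, 4.66, 2.37 and 9.39 CPM in Ly6low and between 1265 and 1478 in T cells, a log2 fold change of -7.50. Bcl11b, which keeps T cells in their lineage, stood between 0 and 1.58 CPM in Ly6low and between 395 and 516 in T cells. No Ly6low library came near the T cell range for either gene. Ikzf3 (log2 fold change 0.08), Klf2 (-0.43) and Runx1 (0.60) were not called. Of 18 surface genes of naive and memory T cells, 17 were higher in T cells, with the chemokine receptor Ccr7 at 359 CPM against 4.78 and the lipid receptor S1pr1 at 565 against 7.11. Cd44, a hyaluronan receptor of activated lymphocytes and of myeloid cells, was the exception, at 685, 769, 636 and 739 CPM in Ly6low and 57.7 to 110 in T cells.

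Genes of the cytosolic ribosome formed the broadest group on the T cell side. Of 84 tested, 77 were higher in T cells and 0 in Ly6low, with a median log2 fold change of -2.15. Rplp1, of the ribosomal stalk, was the most abundant called gene per kilobase in T cells, at 3010 CPM per kilobase against 276, and Rplp0, Rpl8, Rps23, Rpl36, Rps3a1, Rpsa and Rps15 were also among the 10 most abundant, with the elongation factors Eef1a1 and Eef2. The T cell libraries also had the higher shares of mitochondrial counts given above. In a fit without mitochondrial, hemoglobin and ribosomal RNA genes, Gm23935 and Gm26917, 21 monocyte identity genes were higher in Ly6low (median 7.72). In that fit 16 T cell receptor complex genes were higher in T cells (median -8.32). Ribosomal protein genes were not counted as a list there, so the part of the mitochondrial share in their result was not tested. In bulk libraries, fewer cells of a type and less RNA per cell cannot be told apart.

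The 10 genes furthest above Ly6low were Themis, Nsg2, Cd40lg, Slc6a19, Trat1, Sit1, Cd3g, Lrrc75b, Dapl1 and Cnga1. Cd40lg, the ligand by which helper T cells signal to B cells, had 0 counts in Ly6low and stood between 30.5 and 56.3 CPM in T cells, at least 2068-fold lower in Ly6low. Trat1 and Sit1, adaptors that associate with the T cell receptor, were at least 1316-fold and at least 1260-fold lower. Nsg2, a neuronal vesicle protein, gave 2 counts in Ly6low against 185 to 239 CPM in T cells.

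**Figure D3:**
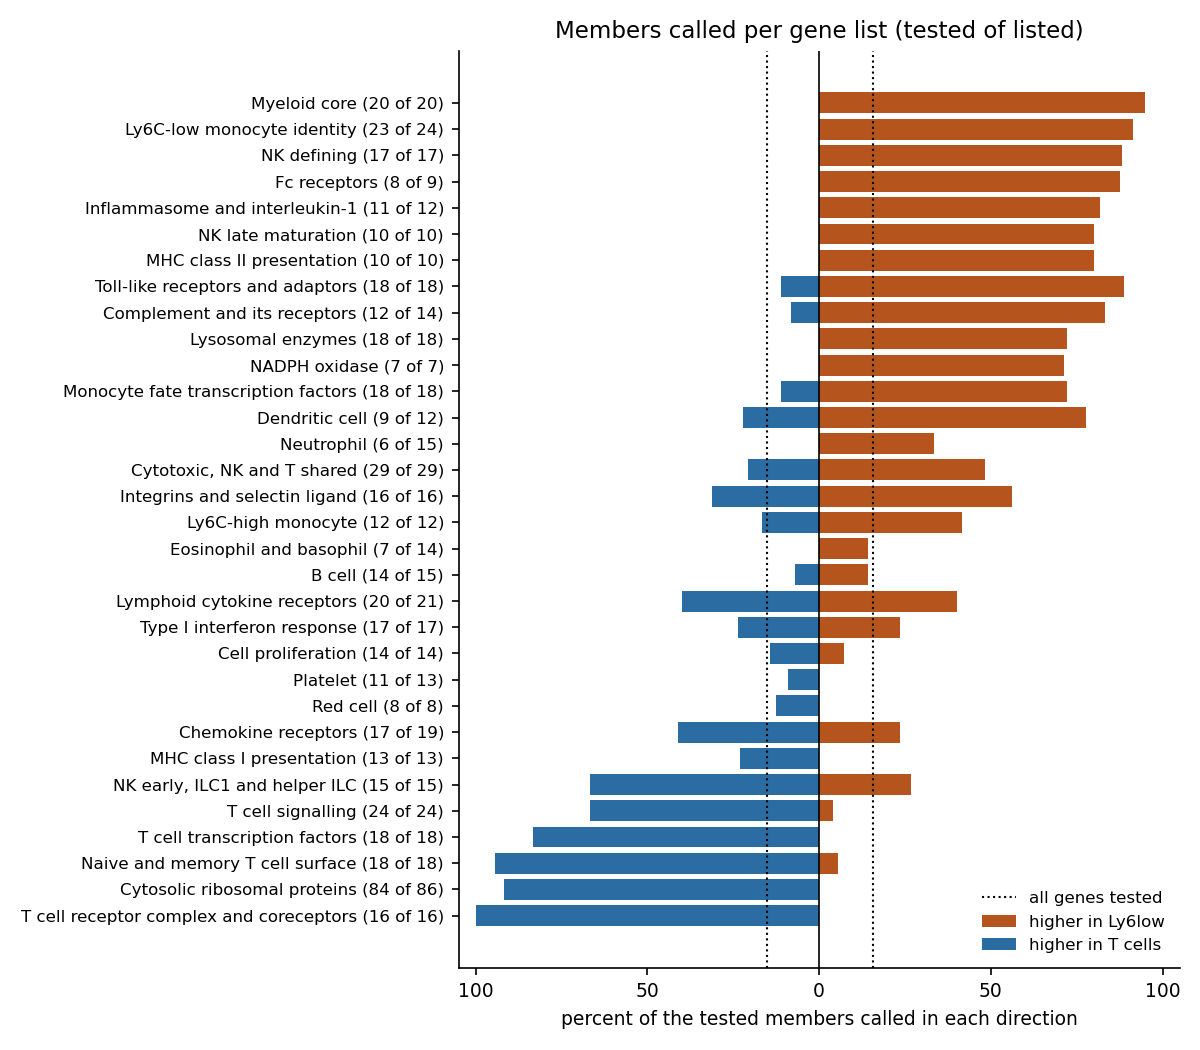
Percent of the tested members of each gene list called higher in Ly6low (right) or in T cells (left) in CON libraries, with the number tested of those listed in brackets; dotted lines mark the share among all genes tested, 15.8% and 15.3%. NK defining genes stand with the monocyte lists on the right and ribosomal protein genes with the T cell lists on the left.

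RNA of NK cells was found in every Ly6low library. Of 17 NK defining genes, all tested, 15 were higher in Ly6low and 0 in T cells, with a median log2 fold change of 3.41, against 15.8%, 15.3% and 0.001 over all genes. Without T cell libraries 53, 56 and 59 the count was again 15 and the median 3.27. Eomes and Clnk (log2 fold change 3.29, adjusted p = 0.0685, edgeR) were the 2 not called. The list holds genes at low levels and members of the Ly49 (Klra) and Khdc1 families, whose near-identical copies make the split of reads among them uncertain.

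Ncr1 (ENSMUSG00000062524, chromosome 7, 4337724 to 4345164) stood at 135, 194, 60.8 and 136 CPM in Ly6low libraries 21, 24, 29 and 32 and between 0.744 and 9.04 (median 3.75) in T cells. Library 24 was the highest and library 29 the lowest Ly6low library, and the groups did not overlap. The log2 fold change of Ncr1 was 4.99 (SE 0.64, adjusted p = 0.000209, edgeR), on 2179 to 8767 counts per Ly6low library. Klrb1c (NK1.1), the classical surface marker of NK cells in this strain, stood at 38.5, 61.6, 21.0 and 46.7 CPM in Ly6low and between 1.05 and 7.97 in T cells. It held the same order of highest and lowest Ly6low library, with a log2 fold change of 3.06 (adjusted p = 0.000457, edgeR). Klra8 (Ly49H), a receptor for a viral protein, stood at 48.8, 78.3, 26.6 and 65.9 CPM and between 0 and 2.11 in T cells, a log2 fold change of 6.03.

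Summed over the 17 genes, NK RNA came to 669, 872, 296 and 615 CPM in Ly6low libraries 21, 24, 29 and 32. In T cells it ran from 38.6 to 175 with a median of 81.5, and the highest was library 68. The groups did not overlap, and the difference in mean log2 level was 2.89 (exact permutation test, two-sided, n = 4 and 6, p = 0.00952, the smallest the 210 arrangements allow with both tails, and 0.0127 after Benjamini-Hochberg adjustment over 12 marker sums). The sum was 13.6 to 47.6 CPM in the 6 Ly6C-high monocyte (Ly6high) CON libraries and 1.93 to 10.4 in the 6 B cell CON libraries. In stressed mice it was 359 to 970 CPM in Ly6low SUS and 519 to 1335 in Ly6low RES. Of the Ly6low CON counts, 0.0350% to 0.111% were in these genes. Klrb1f, a member of the list, stood at 10.2 CPM on average in Ly6high CON and at 10.9 in Ly6low CON. Ncr1 stood at 3.00 and 131 CPM there.

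**Figure D4:**
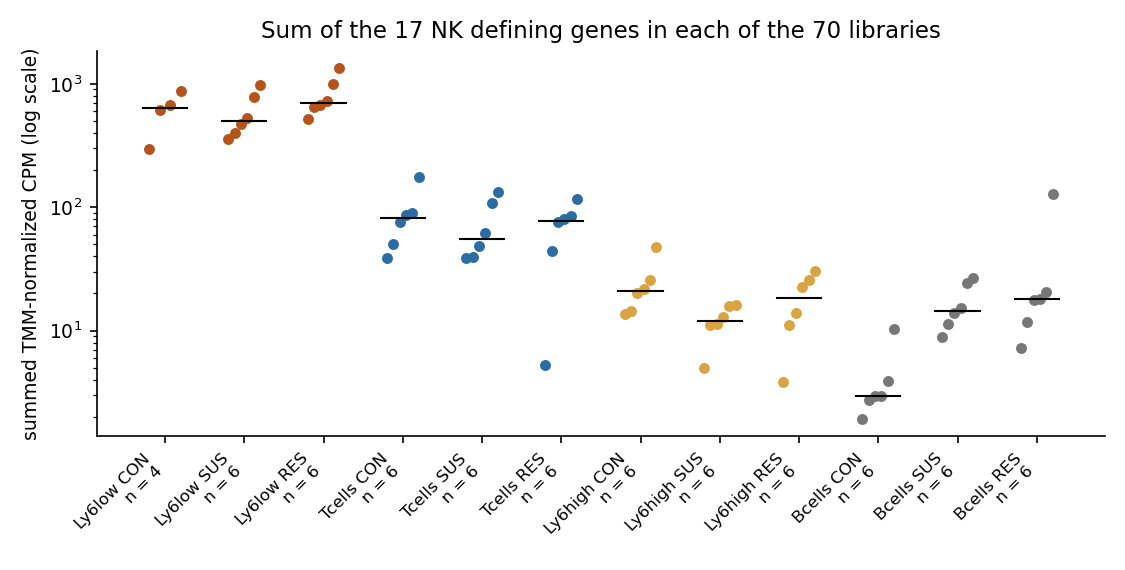
Summed CPM of the 17 NK defining genes (y axis, log scale) in each of the 70 libraries by cell type and condition; points are libraries and bars are medians. The Ly6low libraries lie at 296 CPM or above in CON, against 175 or below in CON T cells.

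Genes of killing that NK cells and T cells share were called in both directions. Of 29 tested, 14 were higher in Ly6low and 6 in T cells, with a median log2 fold change of 1.15. Over all genes these values were 15.8%, 15.3% and 0.001. Without T cell libraries 53, 56 and 59 the counts were 11 and 5. The count higher in T cells ran from 3 to 8 when each library was left out. Gzma, granzyme A, stood at 228, 337, 85.0 and 189 CPM in Ly6low and between 1.98 and 28.4 in T cells, a log2 fold change of 4.21 (adjusted p = 0.00147, edgeR). Prf1, perforin, stood at 101.2, 217, 71.9 and 131 CPM in Ly6low and between 40.9 and 72.8 in T cells. Library 29 lay inside the T cell range of Prf1. Its log2 fold change of 1.20 (adjusted p = 0.00513, edgeR) was 0.83, and not called, without Ly6low library 24. Gzmb had a log2 fold change of 2.94 with all libraries, and of 2.40 with an adjusted p of 0.0646 (edgeR) without T cell libraries 53, 56 and 59.

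Several NK and cytotoxic genes did not separate the groups. Eomes, a T-box factor of NK cells and of memory T cells, stood at 63.7, 73.6, 30.6 and 55.1 CPM in Ly6low and between 21.6 and 113 in T cells, with the highest value in T cell library 68. Klrd1 (CD94) stood at 62.2, 66.1, 35.3 and 60.3 CPM in Ly6low and between 46.4 and 70.9 in T cells, a log2 fold change of 0.00. Ccl5, a chemokine of memory T and NK cells, ran from 61.3 to 262 CPM in Ly6low and from 38.7 to 470 in T cells. All 3 overlapped between the groups, and the sign of each changed under some alternative. The 6 higher in T cells were Cst7, Ctsw, Gzmk, Hcst, Il18r1 and Sh2d2a, with log2 fold changes from -7.00 to -1.09. Gzmk, at the -7.00 end, stood at 0 to 0.0978 CPM in Ly6low and at 0 to 17.0 in T cells, so that the groups overlapped, and its call was lost when any 1 of the 4 Ly6low libraries was left out (adjusted p = 0.0985 to 0.106, edgeR). The summed level of the 29 genes differed by 0.81 on the log2 scale (exact permutation test, two-sided, n = 4 and 6, p = 0.0191, adjusted p = 0.0229), and the adjusted p was 0.0520 to 0.0571 without Ly6low library 21, 24 or 32.

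S1pr5, a receptor that lets mature NK cells leave tissues and which Ly6C-low monocytes also carry, and Cd244a (2B4) were the largest changes of that list in the direction of Ly6low. S1pr5 stood at 224, 266, 314 and 291 CPM in Ly6low and between 0.596 and 6.74 in T cells, and Cd244a at 371, 335, 355 and 340 against 1.52 to 4.93. Neither was lowest in library 29, the Ly6low library with the least Ncr1. Of 10 genes of late NK maturation, 8 were higher in Ly6low, where 15.8% of all genes tested were, and 6 without T cell libraries 53, 56 and 59. But Itgam, Zeb2, Cx3cr1 and S1pr5 among the 10 are also monocyte genes, and Itgam (CD11b) was used to sort the cells. Cma1, a chymase, stood at 14.3, 22.9, 9.01 and 11.8 CPM against 0 to 0.904. Of 15 genes of early NK cells and other innate lymphoid cells, 4 were higher in Ly6low (Itga1, Kit, Tmem176a and Tmem176b) and 10 in T cells, Il7r and Cd27 among them. The shares of all genes were 15.8% and 15.3%. Without T cell libraries 53, 56 and 59 the counts of this list were 2 and 9.

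The Klr genes lie together on chromosome 6. Between 128609227 and 131247362 (mm10), 25 of them were tested, a family taken up after its values were seen. Of the 25, 21 were higher in Ly6low and 1, Klra6, in T cells (log2 fold change -2.77), and the median was 3.40. Over all genes, 15.8% were higher in Ly6low and 15.3% in T cells. Members of the NK defining and shared cytotoxic lists, such as Klrb1c, Klra8 and Klrk1, are among the 25, so these counts overlap with theirs. Klra2 had the highest fold among those above 100 CPM in Ly6low, at 130 against 0.425 CPM. Its log2 fold change was 8.20, and 12.61 without T cell libraries 53, 56 and 59, while that of Ncr1 was 4.99 and 4.63. Ace, a monocyte marker, had 8.19 and 12.98, and the cell type behind the Klra2 RNA was not tested. Klrk1 (NKG2D), which CD8 T cells also use, stood at 131 against 41.9 CPM. Klrd1, Klra1 and Klra5 were not called.

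Over all 16 Ly6low libraries (4 CON, 6 SUS and 6 RES), NK genes varied together. The level of Ncr1 ran from 60.8 to 313 CPM, 5.15-fold from lowest to highest, while the ratio of Klrb1c to Ncr1 ran from 0.273 to 0.406, 1.49-fold. The ratio to Ncr1 ranged 1.56-fold for Gzma, 1.60-fold for Prf1, 1.75-fold for Klra8 and 1.99-fold for Adamts14. For S1pr5 and Cd244a the ratio ranged 4.38-fold and 5.73-fold. The NK defining sum and the summed shared cytotoxic genes had Pearson's r = 0.971 and Spearman's rho = 0.974 on the log2 scale (permutation test, n = 16, p = 1e-05 for each, the smallest the resamples can give, 1.5e-05 adjusted over 3 relations). Without the 2 libraries farthest from the median r was 0.957, and it was 0.990 within SUS and 0.973 within RES, with too few CON libraries for a value of their own.

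Against Ace, the NK defining sum had r = -0.443 (permutation test, n = 16, p = 0.0847, adjusted p = 0.0847) and rho = -0.582 (p = 0.0197, adjusted p = 0.0197). The value of r was -0.560 without the 2 farthest libraries, -0.862 within SUS and -0.540 within RES. The sign was the same throughout, while the permutation p of r did not pass 0.05. CPM are scaled within each library, so levels of different RNAs are not fully independent. What lay behind the relation with Ace was not tested.

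**Figure D5:**
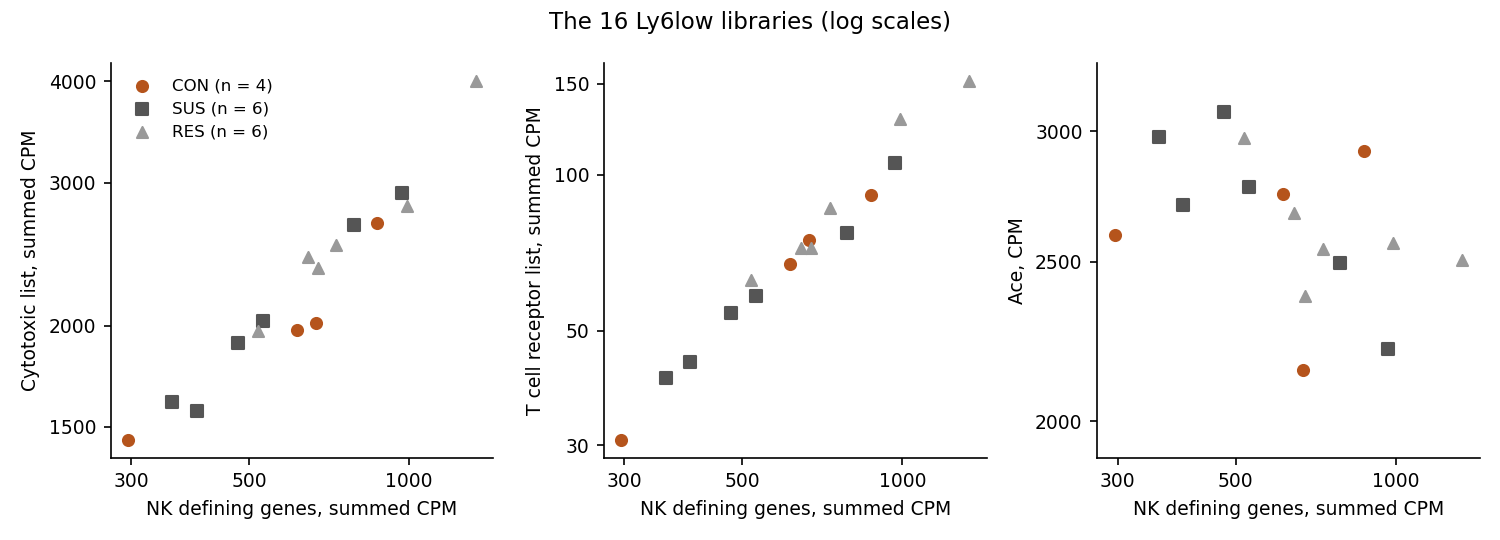
Summed CPM of the NK defining genes (x axis, log scale) in the 16 Ly6low libraries, by condition. The y axes (log scales) show, from left to right, the summed shared cytotoxic genes, the summed T cell receptor complex genes and Ace. The cytotoxic and T cell receptor sums rise with the NK sum (r = 0.971 and 0.988), while Ace has r = -0.443.

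The genes most like Ncr1 over the 16 libraries, among 8992 compared and outside the NK and cytotoxic lists, included Samd3 (r = 0.962), Cd2, Ms4a4b, Gimap4, Osbpl3, Ptpn4, Sept1, Ablim1 and Gpc1 (r = 0.945). Of the 50 genes most like Ncr1, 20 belonged to the NK defining or cytotoxic lists, which held 39 of the 8992. In the comparison with T cells, Cd2, Ms4a4b, Gimap4, Sept1 and Ablim1 were higher in T cells and Osbpl3 in Ly6low. Ablim1, an actin-binding protein, stood at 58.3 ± 26.2 CPM in Ly6low and 951 ± 57.1 in T cells.

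The small T cell receptor complex signal of the Ly6low libraries moved with NK RNA too. Its summed level had r = 0.988 and rho = 0.985 with the NK defining sum (permutation test, n = 16, p = 1e-05 for each, 1.5e-05 adjusted), with r = 0.978 without the 2 farthest libraries, 0.993 within SUS and 0.983 within RES. In the 4 CON libraries, Cd2, Cd247, Trbc1 and Thy1 together made 80.4% to 92.7% of that sum. Cd247, the zeta chain that NK receptors also use, stood at 14.6, 27.2, 9.49 and 9.83 CPM, and Trbc1 at 14.2, 7.70, 5.14 and 14.4. Cd3e gave at most 0.327% of the sum and Trac at most 0.687%. Trbc1 and Trbc2 are near-identical, so reads could be split between them. Trbc2 stood at 0.991 to 1.74 CPM, and the assignment of reads to the 2 genes was not tested.

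Markers of other blood cells were counted in the same way. Over all genes tested, 15.8% were called higher in Ly6low and 15.3% in T cells. The shares of B cell, eosinophil and basophil, platelet and red cell genes called were below these in both directions. Of 14 B cell genes tested, 2 (Cd22 and Fcer2a) were higher in Ly6low and 1 (Ighd) in T cells, and the summed level was 198 to 210 CPM in Ly6low and 243 to 287 in T cells, lower in Ly6low although the median log2 fold change of the members was 0.41. Ly6g had 0 counts in all 10 libraries, and the neutrophil granule genes S100a8 and S100a9 were below 1 CPM on average in both groups. The neutrophil sum was 218 to 275 CPM in Ly6low, of which Csf3r, also a monocyte gene, stood at 234 on average, and 0.205 to 18.1 in T cells. Of 7 eosinophil and basophil genes tested, 1 (Gata2) was higher in Ly6low and 0 in T cells, while their sum was 2.44 log2 units higher in Ly6low. Ms4a2, a chain of the IgE receptor of basophils, stood at 0, 0.421, 6.45 and 6.50 CPM in Ly6low libraries 21, 24, 29 and 32. Of 11 platelet genes 0 were higher in Ly6low and 1 (Itgb3, an integrin chain) in T cells, and of 8 red cell genes 0 and 1 (Hbb-bt, a hemoglobin gene with near-identical copies). Of 9 dendritic cell genes tested, 7 were higher in Ly6low, Flt3 and Cd209a among them, and 2 in T cells, with a median log2 fold change of 6.85. Of 11 tested without T cell libraries 53, 56 and 59, 7 and 2 were called, with a median of 2.24. Of the 12 marker sums, 9 had an adjusted p of 0.0127 (exact permutation test, two-sided, n = 4 and 6), and red cell genes had 0.0312 and dendritic cell genes 0.0571. The adjusted p of the red cell sum was 0.0520 to 0.0779 when Ly6low library 24, 29 or 32 or T cell library 59, 65 or 68 was left out, and that of the dendritic cell sum was 0.0346 without T cell library 56.

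Of 12 Ly6C-high monocyte genes, 5 were higher in Ly6low and 2 in T cells, Ly6c2 among them, and 8 and 2 without T cell libraries 53, 56 and 59. Ly6c2, part of the antigen by which the cells were sorted, stood at 0.140 to 1.15 CPM in Ly6low and 44.4 to 115 in T cells, which is no finding about monocytes. The summed level was lower in Ly6low, at 570 to 752 CPM against 781 to 959, while the median log2 fold change of the members was 1.64. Ccr2, the receptor for monocyte chemoattractant, stood at 265 CPM against 23.6.

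Several receptor families held genes called in both directions, where 15.8% of all genes tested were higher in Ly6low and 15.3% in T cells. Of 17 chemokine receptor genes tested, 4 (Ccr2, Cx3cr1, Cxcr2 and Xcr1) were higher in Ly6low and 7 in T cells, and the median was 0.03. Without T cell libraries 53, 56 and 59 the counts were 5 and 6 of 16 tested. Ccr4, of helper and regulatory T cells, had 0 counts in Ly6low and was at least 421-fold lower there. Of 20 cytokine receptor genes tested, 8 were higher in each group. Without T cell libraries 53, 56 and 59, 5 were higher in Ly6low and 8 in T cells. The receptor for interferon gamma (Ifngr1, 609 against 205 CPM) and Il10ra (633 against 54.3) were higher in Ly6low, and those for interleukin-7 (Il7r), interleukin-21 (Il21r, 5.25 against 167) and interleukin-27 (Il27ra, 7.17 against 152) in T cells. Of 16 integrins and selectin ligands, 9 were higher in Ly6low, with the chains of LFA-1, Itgal (2194 against 421 CPM) and Itgb2 (1806 against 461), and 5 in T cells, with Itgae (3.32 against 114). Without those T cell libraries the integrin counts were 8 and 5.

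Of 17 interferon response genes, 4 (Mx1, Oas1a, Oasl2 and Stat2) were higher in Ly6low and 4 (Ifi27l2a, Ifit1, Ifit2 and Ifit3) in T cells, with a median of -0.19, where 15.8% and 15.3% of all genes tested were called. Of 14 proliferation genes, 1 (Mki67, 61.2 against 29.7 CPM) was higher in Ly6low and 2 (Ccnb2 and Stmn1) in T cells, shares below those of all genes. Besides Gzmb, among the genes named so far Osbpl3, Fcer2a, Kit, Itga1, Mki67, Ccnb2, Hbb-bt, Nlrc5, Ctsw and Ifi27l2a were no longer called without T cell libraries 53, 56 and 59.

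The same contrast was made in stressed mice, in libraries of which none is shared with CON. In SUS mice 5517 of 17396 genes (31.7%) were called, 2804 (16.1%) higher in Ly6low and 2713 (15.6%) higher in T cells. In RES mice 4774 of 17266 (27.6%) were called, 2458 (14.2%) and 2316 (13.4%), and 5634 without T cell library 70. Of the 2944 genes higher in CON Ly6low, 2369 were also called higher in SUS, 80.5% of the CON calls and 84.5% of the SUS calls, and 0 were called the other way. Of the 2849 higher in CON T cells, 2154 were called so in SUS, 75.6% and 79.4%. In RES, 2093 and 1858 were shared (71.1% and 65.2% of the CON calls, 85.2% and 80.2% of the RES calls), with 2 called the other way, and 2411 and 2145 were shared, with 0 the other way, without library 70.

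NK defining genes were called higher in Ly6low in 16 of 17 cases in SUS (median 3.50) and in 16 in RES (median 3.90), or in 17 in RES without library 70 (median 3.65). Ncr1 had log2 fold changes of 5.22 and 5.49 in SUS and RES, and Ace of 9.38 and 8.80. Without library 70 the RES values were 5.30 for Ncr1 and 8.65 for Ace. Whether any of these differed from CON was not tested.

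Set against the other monocyte sort, Ly6low CON libraries differed in fewer genes. Of 17678 tested, 2096 (11.9%) were called, 1057 (5.98%) higher in Ly6low and 1039 (5.88%) higher in Ly6high. This comparison uses the same 4 Ly6low libraries as that with T cells. NK defining genes were higher in Ly6low in 16 of 17 cases, with a median of 5.30, and the shared cytotoxic genes in 25 of 28 tested. Ncr1 had a log2 fold change of 5.48 (adjusted p = 0.00458, edgeR), Eomes of 6.20 and Klrd1 of 4.62. Eomes and Klrd1, which overlapped between Ly6low and T cells, were thus higher in Ly6low than in Ly6high, where they stood at 0.774 and 2.32 CPM.

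Promoters of 250 bases before to 50 after the start were at hand in RefSeq for 10964 of the genes tested, 1906 of those higher in Ly6low and 1571 of those higher in T cells. The letters GAGGAAGT, bound by PU.1, were present on either strand in 3.91% of all these promoters, 6.14% of those higher in Ly6low and 4.07% of those higher in T cells. For the RUNX letters TGTGGTT, shown above before Ncr1, the shares were 4.83%, 4.67% and 5.73%. For the TCF and LEF letters CTTTGAT they were 3.16%, 3.46% and 2.86%, for the C/EBP letters TTGCGCAA 0.301%, 0.315% and 0%, and for the T-box letters AGGTGTGA 1.12%, 1.42% and 1.21%. The general ETS letters CCGGAAG, which share GGAAG with those of PU.1, were in 19.3% of all promoters, 10.4% of those higher in Ly6low and 14.4% of those higher in T cells. These shares describe letters in a window and were not tested.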

How the data were processed

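RNA of sorted blood leukocytes was sequenced by the authors from libraries made with a stranded total RNA kit for small inputs (SMARTer Pico). The deposited table holds raw counts per Ensembl gene for 70 libraries, which the authors made with HISAT2 on mm10 and htseq-count, per their methods and processing notes. The strand option of counting is not given in the sources used here, so overlapping and antisense genes are uncertain. The table's 52636 genes include 52403 matched by identifier to GENCODE M21, which gave symbols, types and coordinates.

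Columns were matched to samples by library number. Each comparison was fitted on its own groups with edgeR 4.0.16 (filterByExpr, TMM, robust quasi-likelihood F test) and adjusted over all genes tested. Genes were called at an adjusted p under 0.05 and a log2 fold change beyond 1. Levels are CPM scaled by TMM over all 70 libraries. Marker lists were summed per library and compared on log2(sum + 0.5) by exact permutation. The scripts were tested on simulated data. No pair of libraries of a group agreed within sampling noise.

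The libraries, gene lists and tests were chosen with earlier results of these data known. Named genes were the markers Ace, Ncr1 and Cd3e, members of the lists on which the text turns, the 10 protein-coding genes with the largest change in each direction (called, a mean of at least 50 counts in the higher group, no overlap), the 10 most abundant called genes per kilobase in each group without mitochondrial genes, and the 10 most like Ncr1 over the Ly6low libraries (mean of at least 5 CPM). Some genes that met these rules are not reported here. The Klr genes of chromosome 6 were taken up after their values were seen. Alternatives were DESeq2 1.42.0, other scaling, filters, thresholds and groups in the fit, thinned counts, raw shares, other pseudocounts and each library left out. DESeq2 was also the authors' tool. Intervals and bounds cover counting error only.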

Additional observations from a re-analysis of the deposited data

Results flagged for a closer look

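Of 86 sets of values in which the highest or lowest library was set against the rest by Dixon's ratio, 11 held a library past the critical value. The critical values pass by chance in about 5% of such sets.

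In Ly6low libraries, Nr4a1 was low in library 21, at 847 CPM where the nearest other library stood at 949, and Trac was high there, at 0.514 CPM with the nearest at 0.0837. Library 29 stood high for Cd3g, at 0.223 CPM with the nearest at 0.0489, and for the share of counts in Gm23935 and Gm26917, at 10.9% with the nearest at 1.79%. It was also the Ly6low library with the least Ncr1, 60.8 CPM.

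Among T cell libraries, library 68 had the lowest total, 27257572 counts with the nearest at 37931098, and the highest NK defining sum (175 CPM, nearest 89.7), Eomes (113 CPM, nearest 42.1) and Cx3cr1 (31.2 CPM, nearest 8.15). Library 56 stood high for the neutrophil sum (18.1 CPM, nearest 6.81), the red cell sum (2871 CPM, nearest 1605) and Cd36 (4.91 CPM, nearest 1.54). It is 1 of the 3 T cell libraries with monocyte RNA.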

How the results depend on the processing

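Over the counts, sums and relations, 584 of the recomputed values were taken as the same. For a count this meant within 1.5 times the main count, and for a sum or relation the same sign and side of the threshold. The others are given here. Library numbers run through the whole series and the labels name no mouse, so no pairing was made. Whether Ly6low and T cell libraries came from the same mice is not known, and the tests treated them as independent. A threshold test against a log2 fold change of 1 (glmTreat) called 2958 genes in RES (1270 of them higher in T cells, and 4069 and 1778 without T cell library 70) and 954 between Ly6low and Ly6high (533 and 421), and under it the shared cytotoxic list had 9 genes higher in Ly6low and 2 in T cells. With all 12 groups in the fit that list had 9 and 3, and leaving out each library in turn gave 3 to 8 higher in T cells, 3 without Ly6low library 21. Library totals alone gave 2933 and 1775 genes in RES (3307 and 2299 without library 70) and 1427 and 699 between Ly6low and Ly6high, and all 12 groups in the fit gave 1384 and 880 there. As shares of raw counts, the summed log2 differences were -0.21 for Ly6C-high genes and -0.12 for B cell genes (both adjusted p = 0.276, exact permutation), 1.02 for dendritic cell genes (0.0254) and -1.03 for red cell genes (0.0914). Leaving out each library gave 0.67 to 0.97 for the cytotoxic sum, 0.54 to 0.90 for the dendritic cell sum and -1.69 to -0.99 for the red cell sum. The red cell sum lost its call without any 1 of 6 libraries and the dendritic cell sum gained 1 without T cell library 56, as given above, and the cytotoxic sum lost its call without Ly6low library 21, 24 or 32. The number of genes called ran from 5525 to 5768 in CON when each library was left out, and DESeq2 called 6992. The causes were not tested.

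Of 250 genes followed, 33 lost their call under some alternative and 7, none of them called, changed sign. Without T cell libraries 53, 56 and 59 the log2 fold change was -0.13 for Eomes and -0.16 for Klrd1. Klrd1 was also below 0 with a filter of 10 counts (-0.0477), all 12 groups in the fit (-0.0455), without mitochondrial, hemoglobin and ribosomal RNA genes (-0.0363) and with thinned counts (-0.0447), and leaving out each library gave -0.0968 to 0.173. Ccl5 was above 0 with DESeq2 (0.0116), RLE factors (0.0109), library totals (0.32) and no filter (0.0020), and leaving out each library gave -0.373 to 0.645, the highest without T cell library 68. Ikzf3 was -0.16 and Klra5 -0.62 without T cell libraries 53, 56 and 59, and leaving out each library gave -0.0184 to 0.180 and -1.26 to 1.67. With library totals alone Fyn was 0.0584 and Nfatc3 0.184, and Nfatc3 ran from -0.165 to 0.0322 when each library was left out. Of the genes named above, Hbb-bt lost its call under 11 alternatives, Gzmk without each Ly6low library, and Lcp2, Fcer2a and Klra6 under 8 each, while Spn, not called here, was called under 6.

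A total of 0 counts allows up to 0.0192 CPM over the 4 Ly6low libraries and up to 0.0124 CPM over the 6 T cell libraries, which limits the folds of genes absent from a group.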

Other observations

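By kind of gene, 350 of 1575 processed pseudogenes tested were called higher in T cells and 83 higher in Ly6low. Of 12789 protein-coding genes, 2245 were higher in Ly6low and 1870 in T cells. These shares are near those of all genes tested, 15.8% and 15.3%. Processed pseudogenes share sequence with their parent genes, ribosomal protein genes among them, so the split of reads is uncertain. Of 148 small nucleolar RNA genes tested, 18 were higher in T cells and 9 in Ly6low, shares below those of all genes. Of 15 scaRNA genes, which guide changes to spliceosomal RNA, 8 were higher in T cells and 0 in Ly6low.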
